A study of Mus musculus with 8 samples.

Results

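Timp3, its relatives Timp1 and Timp2, and the proteases Adam10 and Adam17 were followed in LT-HSC, the long-term hematopoietic stem cells, of aged mice. These 5 genes were looked up by name among the 18174 gene symbols of the 8 deposited tables. Timp3 was chosen by its measured level, since earlier work on these same tables had found it higher in Dlk1+ than in Dlk1- libraries, so its values in that contrast are given as a description without a test. The other 4 genes were added for their known relation to Timp3. Of the 5 genes, 4 had a row in at least 1 table, and Timp1 had none and was not analysed here.

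All cells came from the marrow of untreated male wildtype C57BL/6J mice aged 18 months, and the shared gate was Lin-CD150+CD48-CD34-Kit+Sca1+. One group was sorted as Dlk1+ and the other as Dlk1-, with 4 libraries of up to 96 wells in each group. mCEL-Seq2 reads the 3′ end of polyadenylated RNA, and its primers carry a barcode for the cell and a unique molecular identifier (UMI) for each captured molecule. No label names the animal behind a library, so the spread between libraries may be technical in part, and every p-value below measures only that spread.

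TIMP proteins are secreted inhibitors that block the active site of metalloproteinases. TIMP3 differs from its relatives in that it is held in the extracellular matrix and inhibits the membrane-bound sheddase ADAM17. It also inhibits the sheddase ADAM10, as TIMP1 does. Sheddases cut the outer part off surface proteins, among them the stem cell factor receptor Kit, Notch receptors, TNF receptors and Dlk1 itself.

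After the minimum of 1000 transcripts per cell, 220 Dlk1+ cells (86, 27, 26 and 81 in replicates 1 to 4) and 321 Dlk1- cells (96, 36, 95 and 94) remained. The median depth of a library lay between 1300 and 4884 transcripts per cell in the Dlk1+ group and between 4725 and 5584 in the Dlk1- group. Dlk1+ replicate 3 stood apart as the shallowest library, with 38488 UMIs in its kept cells against 99694 to 496831 in those of the other 7. A further 39254 UMIs of that library lay on 60 barcodes under the minimum. The minimum left out 124 of the 344 Dlk1+ barcodes used and 63 of the 384 Dlk1- barcodes. The sorts shared 0 of their cell barcodes by design, whereas libraries of 1 sort reused the same barcode set. Dlk1 RNA followed the sort, at 507 ± 146 in the Dlk1+ group and 28.6 ± 23.9 in the Dlk1- group (SD, n = 4 each), in transcripts relative to the library total (CPM). HSC markers such as Hlf, Kit and Procr were abundant in both sorts, and the list of 10 summed to between 1536 and 2665 CPM in the Dlk1+ group and between 1910 and 2447 CPM in the Dlk1- group. Markers of myeloid cells reached 5138 CPM in Dlk1+ replicate 4 and at most 367 CPM in each of the other 7 libraries.

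In the mouse annotation GENCODE M21 (GRCm38.p6), Timp3 lies on the plus strand at chr10:86300412-86349505, inside the span of Syn3, which is transcribed from the minus strand. Syn3 encodes a synapsin. It had 2 UMIs in all 541 cells, against 221 for Timp3. Timp2 lies on the minus strand at chr11:118301061-118355411, Adam10 on the plus strand at chr9:70678944-70780229 and Adam17 on the minus strand at chr12:21323509-21373632. The 250 bases before the RefSeq start of the Timp3 and Timp2 genes (GRCm38.p6) are shown because these are the detected inhibitors, of which Timp3 was the one chosen for its level. Each is written 5′ to 3′ along its gene, and the capitals mark the GC box, the letters GGGCGG on either strand.
Timp3, chr10:86300162-86300411, plus strand: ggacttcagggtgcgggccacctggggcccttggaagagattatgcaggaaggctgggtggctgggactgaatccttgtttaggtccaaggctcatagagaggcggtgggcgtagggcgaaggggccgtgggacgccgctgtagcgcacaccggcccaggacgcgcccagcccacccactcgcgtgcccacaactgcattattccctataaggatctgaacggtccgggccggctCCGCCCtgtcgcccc
Timp2, chr11:118355412-118355661, minus strand: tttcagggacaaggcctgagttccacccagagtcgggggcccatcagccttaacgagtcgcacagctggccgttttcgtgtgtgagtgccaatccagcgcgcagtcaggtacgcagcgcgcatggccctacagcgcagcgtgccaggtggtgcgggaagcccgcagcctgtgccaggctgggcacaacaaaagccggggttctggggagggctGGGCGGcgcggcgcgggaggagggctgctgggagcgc
Both stretches are rich in G and C, at 65.6% for Timp3 and 68.0% for Timp2, against a median of 52.4% over 32851 promoters of that length. The Timp3 stretch holds 18 CpG pairs and the Timp2 stretch 21, against a median of 6. Each holds 1 GC box, a match found in 32.7% of those promoters, and neither holds the letters TATAAA. The letters CCAAT occur once before Timp2 and not before Timp3 on either strand, and 33.8% of promoters hold them. These matches describe the sequence only, since the libraries read 3′ ends and not promoters.

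Timp3 transcripts were higher in every Dlk1+ library than in any Dlk1- library. Its level was 149, 224, 230 and 145 CPM in Dlk1+ replicates 1 to 4 and 54.1, 8.68, 23.1 and 48.2 CPM in Dlk1- replicates 1 to 4. The groups did not overlap, and the lowest Dlk1+ library lay well above the highest Dlk1- library. The means were 187 ± 46.6 and 33.5 ± 21.3 CPM (SD over 4 libraries each), a ratio of 5.58. The limma-voom fit across all genes gave a log2 fold change of 2.40 (SE 0.37). These values rest on few molecules, 157 UMIs in the Dlk1+ and 64 in the Dlk1- cells, and as few as 9 in Dlk1+ replicate 3 and 2 in Dlk1- replicate 2. The log2 ratio of the means was 2.48 over all libraries, 2.36 without Dlk1+ replicate 3 and 2.16 without Dlk1- replicate 2.

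**Figure D1:**
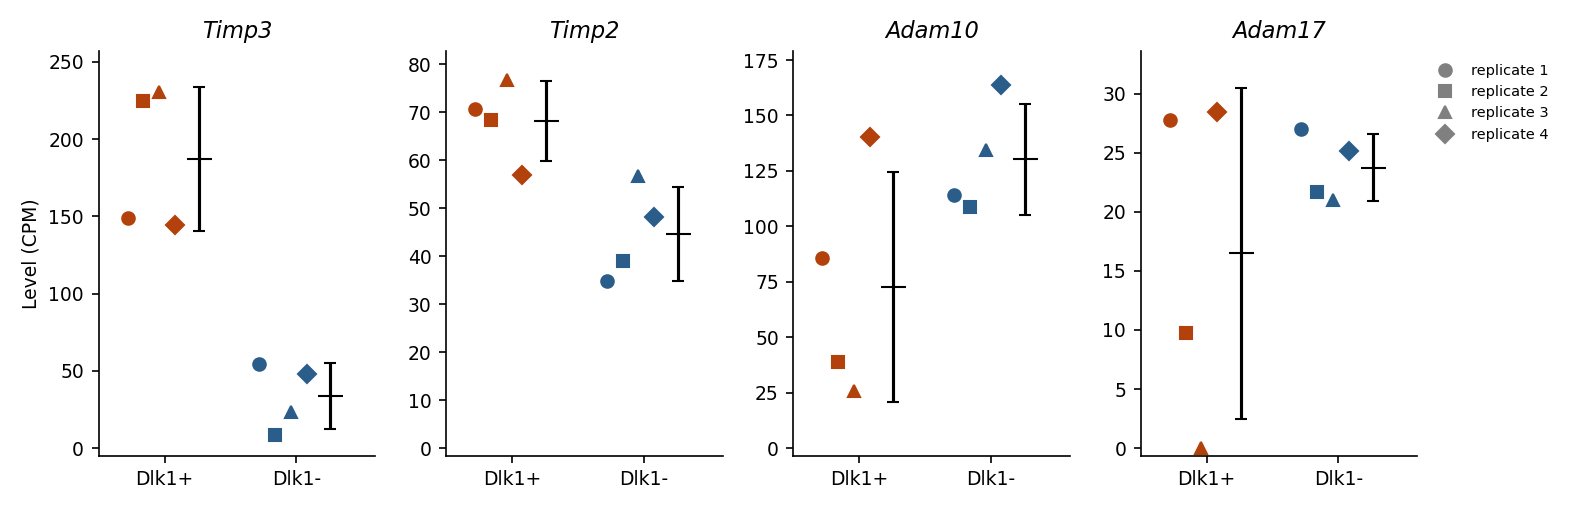
Levels of the 4 detected genes by library (CPM, linear axes that start at 0 and differ in range), with the marker shape giving the replicate number and the bars the mean and SD of 4 libraries. Timp3 and Timp2 show no overlap between the sorts, and Adam10 and Adam17 are lowest in Dlk1+ replicates 2 and 3.

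Timp2 was the other inhibitor found in all 8 libraries. It encodes an inhibitor that also takes part in the activation of MMP2 together with the membrane protease MMP14. Its level was 70.8, 68.3, 76.8 and 56.9 CPM in Dlk1+ replicates 1 to 4 and 34.8, 39.1, 56.8 and 48.2 CPM in Dlk1- replicates 1 to 4. The groups did not overlap, although Dlk1+ replicate 4 and Dlk1- replicate 3 nearly met, and Dlk1+ replicate 3 held only 3 Timp2 UMIs. Every Dlk1+ library lay above every Dlk1- library for 63 of the 5666 genes tested, which is 1.11% of them. The log2 fold change of Timp2 was 0.57 (SE 0.30, 95% interval from -0.05 to 1.19), and it did not pass the test (adjusted p = 0.767, limma-voom with Benjamini-Hochberg adjustment).

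Adam10 and Adam17, the proteases, did not pass the test either. ADAM10 is the main sheddase of Notch receptors and ADAM17 that of TNF. Adam10 stood at 85.9, 39.0, 25.6 and 140.1 CPM in Dlk1+ and at 114, 108.5, 134.6 and 163.5 CPM in Dlk1- replicates 1 to 4. The groups overlapped, and the low Dlk1+ values were those of replicates 2 and 3, with 4 UMIs and 1 UMI. Its log2 fold change was -0.55 (SE 0.32, 95% interval from -1.23 to 0.13, adjusted p = 0.790, limma-voom). Adam17 stood at 27.8, 9.76, 0 and 28.5 CPM in Dlk1+ and at 27.1, 21.7, 21.03 and 25.2 CPM in Dlk1- replicates 1 to 4. In Dlk1+ replicate 3 a count of 0 allows up to 76.8 CPM, by 3 UMIs and for counting error only, so its absence was not detectable at this depth. The log2 fold change of Adam17 was -0.15 (SE 0.40, 95% interval from -0.99 to 0.68, adjusted p = 0.960, limma-voom), and it turned to 0.13 without Dlk1+ replicate 3.

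Of the 3 detected members other than Timp3, 0 passed in this fit, by limma-voom, and 0 had an unadjusted p under 0.05. Across all 5666 genes 2 were called, which is 0.0353%, and 368 had an unadjusted p under 0.05. The 2 were Dlk1, which defined the sort, and Timp3, which was chosen on this contrast, so nothing is read from either. With a minimum of 2000 transcripts per cell, or with every cell thinned to 2000 UMIs, Dlk1 was the 1 call. The median log2 fold change of all genes was -0.04.

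The share of cells with at least 1 Timp3 UMI also differed. With all UMIs it was 37.2%, 40.7%, 19.2% and 34.6% of cells in Dlk1+ replicates 1 to 4 and 9.38%, 5.56%, 6.32% and 10.6% in Dlk1- replicates 1 to 4, so that the groups did not overlap. The 95% Wilson interval of the lowest Dlk1+ value ran from 8.51% to 37.9% and that of the highest Dlk1- value from 5.88% to 18.5%, for counting error only. In all, 76 of 220 Dlk1+ cells (34.5%) and 27 of 321 Dlk1- cells (8.41%) held a Timp3 UMI. Each cell was then thinned to 2000 UMIs, a depth that 30 Dlk1+ and 14 Dlk1- cells did not reach. The shares were 24.4%, 20%, 0 and 25.3% in Dlk1+ replicates 1 to 4 and 6.45%, 2.94%, 4.35% and 5.68% in Dlk1- replicates 1 to 4. The groups then overlapped through Dlk1+ replicate 3, in which only 4 cells reached this depth. The difference of the means was 12.6 percentage points over all libraries and 18.4 points without that library. On barcodes that held no sorted cell, 728 in all with 23663 UMIs, there were 2 Timp3 UMIs (84.5 CPM). In the Dlk1- libraries this was 1 in 14093 UMIs (71.0 CPM), above the mean of 33.5 CPM in their cells. A count of 0 there would allow up to 213 CPM, for counting error only. These barcodes are thus too shallow to tell a background from the Dlk1- level.

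**Figure D2:**
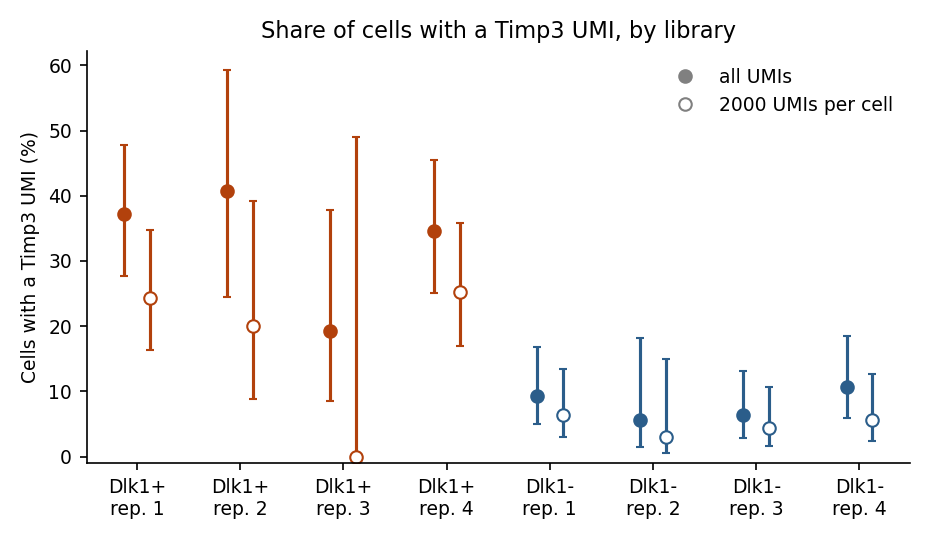
Percent of cells with a Timp3 UMI in each library, with all UMIs (filled) and after thinning to 2000 UMIs per cell (open), with 95% Wilson intervals. Filled Dlk1+ points lie between 19.2% and 40.7% and filled Dlk1- points between 5.56% and 10.6%, and the open point of Dlk1+ replicate 3 rests on 4 cells.

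For the other members, shares at 2000 UMIs did not pass an exact permutation test over libraries. Timp2 occurred in 9.16% ± 7.82 of Dlk1+ and 8.85% ± 2.62 of Dlk1- cells (SD, n = 4 each, two-sided exact p = 1, adjusted p = 1). Its sign was not stable, since the difference of 0.31 points became -2.02 points at 1000 UMIs per cell. Adam10 occurred in 11.9% ± 11.6 and 22.4% ± 2.07 of cells (SD, n = 4 each, exact p = 0.171, adjusted p = 0.514), and Adam17 in 3.50% ± 2.62 and 5.05% ± 1.21 (SD, n = 4 each, exact p = 0.371, adjusted p = 0.557). The Adam10 difference of -10.5 points was -25.1 points with all UMIs, -2.64 points at 1000 UMIs and -6.56 points without Dlk1+ replicate 3. That of Adam17, -1.55 points, was -4.64 points with all UMIs, -0.39 points without Dlk1+ replicate 3 and -2.50 points without Dlk1+ replicate 4. The 3 p-values were adjusted together, and 0.0286 is the smallest this design allows.

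Timp3 transcripts were gathered in fewer cells than their number would fill, in both sorts. If each library's UMIs were spread over its cells in proportion to depth, the 157 Timp3 UMIs of the Dlk1+ libraries would be expected in 105 cells, and they occurred in 76. The 64 UMIs of the Dlk1- libraries would be expected in 56.2 cells and occurred in 27. Observed numbers lay below the expected ones in 7 of 8 libraries, and the exception was Dlk1- replicate 2 with 2 UMIs in 2 cells.

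Timp2, Adam10 and Adam17 came closer to an even spread. The 64 Timp2 UMIs of Dlk1+ cells lay in 53 cells against 53.2 expected, and the 77 of Dlk1- cells in 62 against 67.2. For Adam10 the numbers were 67 against 73.0 in Dlk1+ and 156 against 156 in Dlk1- cells. Adam17 UMIs lay in 23 cells against 22.8 expected and in 38 against 38.1. One library departed for Timp2, Dlk1- replicate 1, with 10 cells against 16.2. Dlk1, outside the family, also lay in fewer cells than expected in every library but Dlk1- replicate 1. It lay in 63 cells against 75.7 in Dlk1+ replicate 4 and in 10 against 20.9 in Dlk1- replicate 4. This comparison is a description and was given no test.

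**Figure D3:**
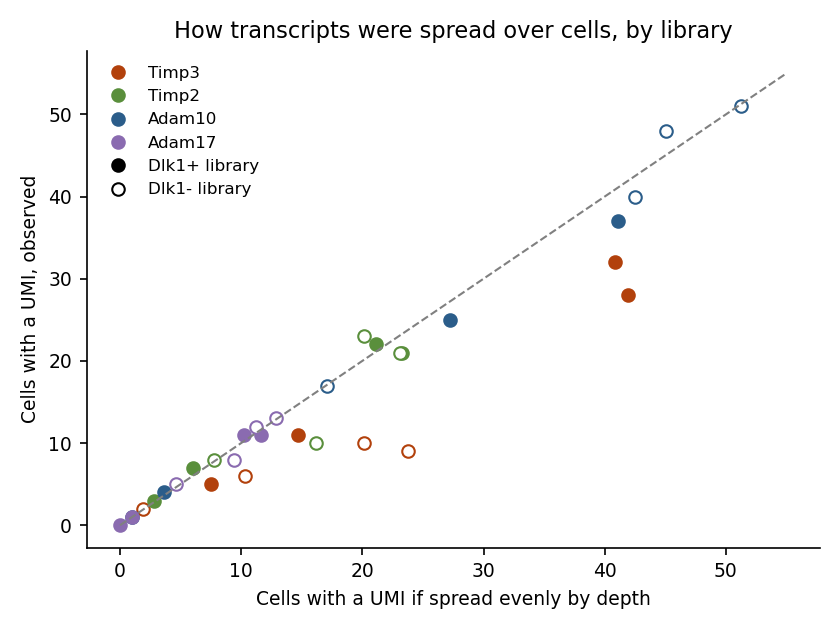
Number of cells with a UMI of each gene (vertical) against the number expected if its UMIs were spread over the cells by depth (horizontal), 1 point per gene and library, with the dashed line at equality. Timp3 points fall below the line in 7 of 8 libraries, while those of Adam10 and Adam17 lie on or near it.

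Most Timp3-positive cells held 1 or 2 Timp3 UMIs. In Dlk1+ cells, 39 held 1 Timp3 UMI, 19 held 2, 6 held 3 and 12 held 4 or more. In Dlk1- cells the numbers were 16, 5, 2 and 4. A positive cell held 2.07 UMIs on average in the Dlk1+ sort and 2.37 in the Dlk1- sort. Single cells carried much of the Dlk1- signal. In Dlk1- replicate 1, 1 cell of 3110 UMIs held 11 Timp3 UMIs and another held 8, out of 28 in the library. When the cell with most Timp3 UMIs was left out of each library, the levels in UMIs relative to the library total were 132.7 to 187 CPM in the Dlk1+ and 4.64 to 34.6 CPM in the Dlk1- libraries. These ranges did not overlap, in the contrast on which Timp3 was chosen.

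The cells richest in Timp3 carried HSC transcripts. There were 16 cells with 4 or more Timp3 UMIs, and each held between 2 and 22 UMIs of the HSC list. Of all 103 Timp3-positive cells, 83 held Hlf, 78 Kit and 43 Procr. Among the 11 stromal markers, Lum had no row, and Col3a1 and Sparc were at 0 in these cells. Col1a2 had 5 UMIs, Pdgfrb 3, Cxcl12 2, and Col1a1, Dcn, Lepr and Pdgfra 1 each. Igfbp4 had 71, more than all the others of the list together. Of the 8 endothelial markers Cdh5 had no row and Plvap was at 0, while Tie1, which stem cells also express, had 121 UMIs, Egfl7 22, Pecam1 and Emcn 12 each, Kdr 7 and Stab2 1. Over the whole stromal list the summed level was 146.6 to 283 CPM in the Dlk1+ group and 112 to 169 CPM in the Dlk1- group. Within the Dlk1+ sort it was 131 ± 92.4 CPM in Timp3-positive and 239 ± 79.2 CPM in Timp3-negative cells (SD, n = 4), where the 5 positive cells of replicate 3 gave 0. Within the Dlk1- sort it was 191 ± 94.1 and 144 ± 24.8 CPM (SD, n = 3), the opposite order. The endothelial list summed to 273 to 538 CPM in the Dlk1+ and 282 to 423 CPM in the Dlk1- group. It stood at 453 ± 256 CPM in Timp3-positive and 358 ± 88.1 CPM in Timp3-negative cells of the Dlk1+ sort (SD, n = 4), and at 394 ± 131 and 342 ± 71.6 CPM in those of the Dlk1- sort (SD, n = 3). In Dlk1+ replicate 3 the 5 positive cells gave 830 CPM, with 6 of 7 markers at 0, against 471 CPM in its negative cells. In Dlk1+ replicates 1, 2 and 4 the sums were 305, 388 and 287 CPM in positive and 256, 358 and 345 CPM in negative cells. Of the 7 libraries compared, the HSC sum was higher in Timp3-positive cells in only 3. It averaged 2174 ± 491 CPM in Timp3-positive and 2135 ± 424 CPM in Timp3-negative cells (SD, n = 7). In Dlk1- replicate 1 it was 1133 and 2074 CPM. The sum was higher in Timp3-positive cells in 2 for the stromal, 5 for the endothelial, 6 for the megakaryocyte and 1 for the myeloid list. The number was 5 for the erythroid, 3 for the cycling and for the mast and basophil, and 4 for both lymphoid lists. The part of these lists in the Timp3 levels was not tested. Myeloid markers of Dlk1+ replicate 4 stood at 491 CPM in its Timp3-positive and 7820 CPM in its Timp3-negative cells.

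Of the marker lists summed, 1 did not overlap between the sorts and is named for that reason only. Among single genes, 1.11% of those tested had every Dlk1+ library above every Dlk1- library. Of the 8 markers of T and NK cells, 3 had a row (Klrb1c, Nkg7 and Lck), and their sum was 68.2 to 166 CPM in the Dlk1+ group and 39.1 to 58.7 CPM in the Dlk1- group. The sum was 102 CPM in the shallow Dlk1+ replicate 3, where a count of 0 allows up to 76.8 CPM. Most of the sum was Klrb1c, with a log2 fold change of 1.504 that did not pass the test (adjusted p = 0.550, limma-voom). Within the Dlk1+ sort the list stood at 109 ± 33.7 CPM in Timp3-positive and 114 ± 54.9 CPM in Timp3-negative cells (SD, n = 4), and within the Dlk1- sort at 71.8 ± 20.2 and 49.7 ± 10.05 CPM (SD, n = 3). Its part in the Timp3 difference was not tested.

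Timp3-positive and Timp3-negative cells were then compared across all genes within libraries. Dlk1- replicate 2 had only 2 positive cells and did not enter, which left 7 libraries. With library as a block, 0 of 1165 genes passed by limma-voom (0% called), and 50 had an unadjusted p under 0.05. The 5 genes of lowest p that were higher in Timp3-positive cells were Cdca7, Ago2, Nrgn, Def8 and Gatad2a, each higher in 7 of 7 libraries. Cdca7, a chromatin factor of dividing cells, stood at 176 CPM in positive and 56.5 CPM in negative cells on average (log2 fold change 1.37, SE 0.29, adjusted p = 0.247, limma-voom). Ago2, the slicing component of the miRNA machinery, stood at 245 and 151 CPM (0.83, SE 0.19, adjusted p = 0.247).

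On the other side the 5 genes of lowest p were H2-Aa, Jund, Limd2, Fos and Klf9. H2-Aa, an MHC class II chain, stood at 70.7 CPM in positive and 167 CPM in negative cells and was lower in 6 of 7 libraries (log2 fold change -1.31, SE 0.41, adjusted p = 0.939, limma-voom). Fos, a subunit of AP-1, stood at 1690 and 2186 CPM (-0.36, SE 0.13, adjusted p = 0.939). None of these 10 genes passed, so they are named as the rows of lowest p only. Among the members, Adam10 had enough transcripts for this fit (log2 fold change 0.30, SE 0.22, adjusted p = 0.948, limma-voom). Without the expression filter 1 gene passed, the satellite-like transcript Gm10800, which was lower in Timp3-positive cells (adjusted p = 0.0399, limma-voom). In that fit other genes moved down as well. The log2 fold change went from 0.30 to 0.08 for Adam10, from 0.47 to 0.25 for Nrgn and from -0.36 to -0.59 for Fos. The part of this common shift in the 1 call was not tested.

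Dlk1 RNA was compared between Timp3-positive and Timp3-negative cells because the sort used its protein. At 2000 UMIs per cell, Dlk1 occurred in 41.1% ± 28.6 of Timp3-positive and 33.2% ± 33.5 of Timp3-negative cells (SD, n = 6 libraries), and it was higher in 5 of 6. The exception was Dlk1+ replicate 1, at 30% and 59.7%, a difference of -29.7 points. The mean difference of 7.95 points did not pass (two-sided exact sign-flip permutation p = 0.344, adjusted p = 0.688 over 6 measures), and it was 15.5 points without Dlk1+ replicate 1, 4.99 points without Dlk1- replicate 3 and 2.87 points at 1000 UMIs. With all UMIs the difference was 14.5 points and was positive in 7 of 7 libraries, with an exact permutation p of 0.0156, the smallest the design allows, and an adjusted p of 0.0938. It was only 0.23 and 0.57 points in Dlk1+ replicates 1 and 2, so the sign there is nearly open. Depth is not made equal with all UMIs, and Timp3-positive cells were the deeper in 5 of 7 libraries. The part of depth in this difference was not tested. In the Dlk1- sort alone, at 2000 UMIs, the share was 20.6% ± 4.19 in Timp3-positive against 2.77% ± 3.04 in Timp3-negative cells (SD, n = 3 libraries), from 15 positive cells in all, and 3 libraries cannot reach an exact p below 0.25. The first value is 1 cell with Dlk1 per library, of 6, 4 and 5 Timp3-positive cells in Dlk1- replicates 1, 3 and 4. Its small SD therefore reflects only those cell numbers. In the Dlk1+ sort the share was 61.7% ± 27.5 and 63.6% ± 5.61 (SD, n = 3). The difference between the sorts did not pass an exact permutation test (p = 0.2 at 2000 UMIs, where 0.1 is the smallest possible, and 0.4 with all UMIs).

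Read the other way, the Timp3 level was higher in cells that held a Dlk1 UMI in 7 of 8 libraries, all but Dlk1- replicate 2. In the Dlk1+ sort it stood at 181, 271, 543 and 166 CPM (from UMIs) in such cells of replicates 1 to 4, and at 118, 115.9, 78.1 and 95.8 in cells without one. It was higher in cells with Dlk1 in all 4 libraries, by the least in replicates 1 and 4, which hold the most cells, and the value of 543 rests on 7 UMIs. The share of cells with a Timp3 UMI did not follow in every library. It was 37.3%, 40.9%, 33.3% and 36.5% of cells with Dlk1 and 37.0%, 40%, 11.8% and 27.8% of cells without, so that replicates 1 and 2 were nearly level. At 2000 UMIs replicate 1 had the opposite order, at 14.0% of cells with Dlk1 and 35.9% of cells without. In the Dlk1- sort, only 18 cells held a Dlk1 UMI, and Timp3 stood there at 539, 0, 318 and 168 CPM in replicates 1 to 4, against 41.5, 9.56, 11.3 and 35.4 in the other 303 cells. Those 18 cells held 22 of the 64 Timp3 UMIs of the sort. Among cells without a Dlk1 UMI, Timp3 stood at 78.1 to 118 CPM in the Dlk1+ group and 9.56 to 41.5 CPM in the Dlk1- group. These ranges did not overlap, but Timp3 was chosen on this contrast, so they only describe it. The values of 78.1 and 9.56 rest on 2 UMIs each, and that of Dlk1+ replicate 2 on 3 UMIs in 5 cells. These values share cells with the comparison above and carry no test of their own.

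**Figure D4:**
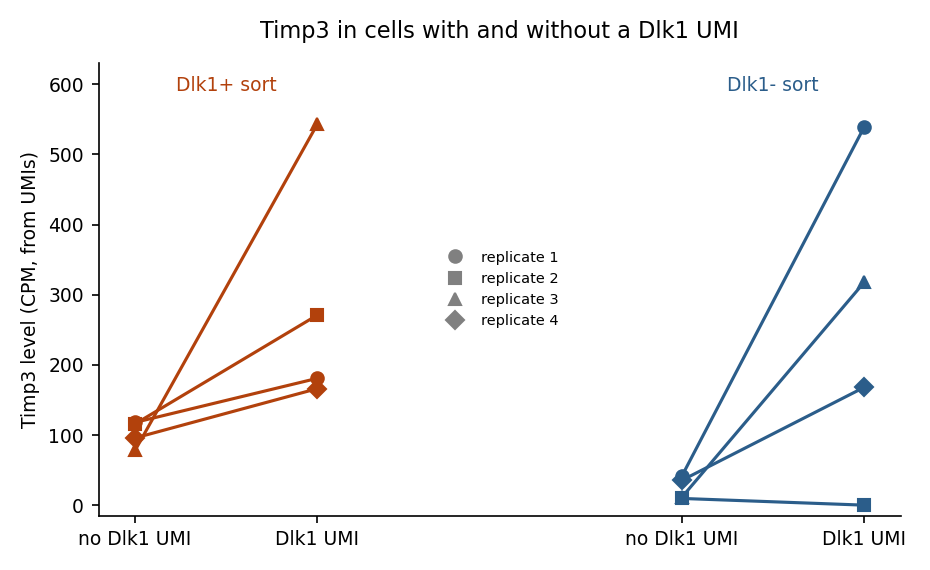
Timp3 level (CPM, from UMIs) in cells without and with a Dlk1 UMI, 1 line per library, for the Dlk1+ sort (left) and the Dlk1- sort (right). Lines rise in all 4 Dlk1+ libraries and in 3 of 4 Dlk1- libraries, where the right-hand points rest on 2 to 10 cells each.

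Other members and depth were compared in the same way. With all UMIs, Timp2 was less frequent in Timp3-positive than in Timp3-negative cells, at 14.4% ± 11.4 and 21.95% ± 6.48 (SD, n = 7 libraries, lower in 6 of 7, exact permutation p = 0.0312, adjusted p = 0.0938), and it did not pass. At 2000 UMIs the Timp2 difference was 0.13 points (exact p = 1, n = 6 libraries). Adam10 occurred in 27.2% ± 14.9 of positive and 17.6% ± 6.97 of negative cells at 2000 UMIs (SD, n = 6 libraries, exact permutation p = 0.125, adjusted p = 0.688). With all UMIs it was 42.7% ± 23.2 and 31.1% ± 19.9 (SD, n = 7, exact permutation p = 0.0625, adjusted p = 0.125). Adam17 occurred in 2.5% and 4.75% at 2000 UMIs (exact permutation p = 0.281), and in 6.33% and 9.29% with all UMIs (p = 0.406). Meg3, the noncoding RNA of the imprinted Dlk1 locus, occurred in 30.8% ± 27.3 and 25.9% ± 17.2 of cells at 2000 UMIs (SD, n = 6, exact permutation p = 0.594, adjusted p = 0.891). Depth did not pass either, with a difference of 0.14 in log2 transcripts per cell over 7 libraries, classes by all UMIs (exact permutation p = 0.219). With classes at 2000 UMIs it was -0.05 over 6 libraries (exact permutation p = 0.875).

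Genes with a like pattern were sought by Pearson's r with log2 levels. Across the 8 libraries, the 5 most alike of 5665 genes were Atmin (r = 0.95), Asb7 (0.95), Nnt (0.94), Cdkn1a (0.93) and Slfn2 (0.93), and these 8 points share the 2 sorts and their depths. Timp3 was chosen on the contrast of these sorts, so the 5 are named as the highest r only. Across single cells thinned to 2000 UMIs, correlations were weak. The highest was 0.27 for Gclm over 190 Dlk1+ cells, with 0.03 in the other sort, and 0.28 for Ep400 over 307 Dlk1- cells, with 0.12 in the other sort. In counts this sparse such values are no finding.

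The wider pathway was sparse as well. Of the other inhibitors, Timp4 had 3 UMIs, Reck 9 and Rarres1 5, and 0 of the 4 listed were tested. Of 17 matrix metalloproteinases 10 had a row and 1 was tested, Mmp14, the membrane protease that activates MMP2 (24.9 ± 17.2 CPM in the Dlk1+ and 27.8 ± 11.1 CPM in the Dlk1- group, SD, n = 4 each, adjusted p = 0.994, limma-voom). Mmp9, a gelatinase of myeloid granules, had 16 UMIs, all in Dlk1+ replicate 4, the library with the most myeloid markers. Of 20 other ADAM and ADAMTS proteases 1 was tested, Adamts10, which did not pass (log2 fold change 0.49, SE 0.36, adjusted p = 0.838, limma-voom).

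Among 11 partners of the sheddases, 3 were tested and 0 passed. Tspan14, a tetraspanin that carries ADAM10 to the surface, stood at 108 ± 55.3 CPM in the Dlk1+ and 132 ± 27.9 CPM in the Dlk1- group (SD, n = 4 each). Frmd8, which stabilises the iRhom and ADAM17 complex, had a log2 fold change of -0.57 (SE 0.43), and Furin, which removes the prodomains of both proteases, one of 0.29 (SE 0.29). Of 13 other TIMP binding partners 3 were tested and 0 passed. They were the tetraspanin Cd63, the integrin Itgb1 and the receptor Igf1r, with log2 fold changes of -0.16, 0.31 and -0.17.

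Of 29 surface proteins known to be shed, 27 had a row, 14 were tested and 1 passed, Dlk1, which defined the sort. The median log2 fold change of the 14 was 0.02, beside -0.04 over all genes. Aplp2, a relative of the amyloid precursor, was higher in every Dlk1+ library, at 167 to 358 CPM against 91.1 to 159 CPM, and did not pass (log2 fold change 0.72, SE 0.26, adjusted p = 0.701, limma-voom). Icam1, an adhesion molecule, was lower in every Dlk1+ library, at 17.5 to 25.6 CPM against 27.1 to 52.4 CPM, and did not pass (log2 fold change -0.66, SE 0.36, adjusted p = 0.767, limma-voom). Such a lack of overlap occurred upward in 1.11% and downward in 2.03% of all genes tested. Kit stood at 315 ± 133 CPM in the Dlk1+ and 449 ± 43.1 CPM in the Dlk1- group (SD, n = 4 each, adjusted p = 0.811, limma-voom). Notch2 had a log2 fold change of -0.15, the TNF receptor Tnfrsf1a one of -0.23 and Tnfrsf1b one of -0.02, and none of these passed. In Timp3-positive against Timp3-negative cells, 5 of the 29 were tested and 0 passed.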

How the data were processed

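Each library was deposited as a table of genes by barcodes. The authors' values, per the file contents, are estimated transcript counts corrected for UMI collisions, of no unit that could be verified automatically (other), and not scaled for depth. The submitters' processing notes list BWA 0.6.2-r126 and the build mm10, and further steps are not given in the sources used here. Inverting the usual correction for 4096 possible UMIs gave whole UMI counts within 1e-06. Deposited values were summed for levels and fits, and whole UMIs were used for shares, thinning and levels marked as from UMIs.

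The members, gene lists and tests were chosen with earlier results of these data known. Each table's own set of 96 barcodes was used, without numbers 17, 20 to 24 and 29 to 32, and a cell needed 1000 transcripts. No doublet caller was run. Library sums were fitted with limma-voom (limma 3.58.1, R 4.3.3) after scaling by trimmed means of M-values (TMM). Genes needed a total of 15 and, in at least 4 libraries (7 of the sums by class), a CPM equal to 10 transcripts in a library of median size, and Benjamini-Hochberg adjustment covered all genes with a threshold of 0.05. Timp3-positive means at least 1 Timp3 UMI, with at least 3 cells per class and library, and Timp3 itself left out of that fit. Named genes of that fit are the 5 of lowest p in each direction. Shares were compared by two-sided exact permutation over libraries, or by sign flips within libraries (scipy 1.17.1, numpy 2.4.6, pandas 2.3.3, Python 3.11.15). Likeness used log2 of CPM plus 10 over genes tested, and for cells genes found in at least 10% of them. The fits were tested on simulated data. Kept cells held 38488 to 496831 UMIs per library, and intervals cover counting error only. Alternatives changed the scaling, filters, minimum depth, thinning, blocks, barcodes and libraries.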

Additional observations from a re-analysis of the deposited data

Results flagged for a closer look

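The Timp2 share of cells in Dlk1- replicate 1 stood apart from the other 3 Dlk1- libraries, at 10.4% with all UMIs against 22.1% to 24.5%. It was the 1 departure among 24 groups of 4 libraries looked at, and chance alone gives about 1 in 20.

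On the 10 barcodes left out of the main analysis, the Dlk1+ libraries held 14 Timp3 UMIs in 120327 UMIs (116 CPM), against 1 in 25978 (38.5 CPM) in the Dlk1- libraries. In the Dlk1+ libraries these barcodes carried sorted cells. Adding the 10 barcodes of the Dlk1+ libraries moved the log2 ratio of mean Timp3 levels from 2.48 to 2.42.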

How the results depend on the processing

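The log2 ratio of mean Timp3 levels kept its sign in 14 of 14 alternatives, between 1.93 (minimum of 2000 transcripts) and 2.81 (without Dlk1- replicate 1), and was 2.78 without the cell of most Timp3 UMIs in each library, an alternative chosen after seeing the data. The Timp3 share difference was 24.97 points with all UMIs, and 9.94 to 18.4 points with 1 library left out. The 2 calls between the sorts became 1, Dlk1 alone, with a minimum of 2000 transcripts and with every cell thinned, 4 with the 10 barcodes, and 1 to 19 with 1 library left out. They were 1 without Dlk1+ replicate 2, 1 without Dlk1- replicate 3 and 19 (5 higher, 14 lower) without Dlk1+ replicate 4. Dlk1 passed in 16 of 16 alternatives and Timp2, Adam10 and Adam17 in 0 of those that could test them. The log2 fold change of Adam17 turned positive with a minimum of 2000 transcripts (0.083) and with the 10 barcodes (0.026), and ran from -0.42 to 0.13 with 1 library left out, positive without Dlk1+ replicate 3. The Timp2 share difference was -2.02 points at 1000 UMIs, and -2.74 to 3.36 points with 1 library left out, negative without Dlk1+ replicate 1 (-2.74), Dlk1+ replicate 2 (-0.64), Dlk1- replicate 1 (-0.49) or Dlk1- replicate 3 (-0.10). The Dlk1 share difference was -1.90 points in the Dlk1+ libraries alone and between 9.57 and 18.2 points under 5 other thinning seeds, with adjusted p between 0.125 and 0.75 by exact permutation. It was 2.87 points at 1000 UMIs and 4.99 to 15.5 points with 1 library left out, the lowest without Dlk1- replicate 3 and the highest without Dlk1+ replicate 1. The Adam10 share difference ran from -14.2 to -6.56 points with 1 library left out. Timp3-positive against Timp3-negative cells gave 1 call without the filter and 0 in the other 11 alternatives. The cause of these changes was not tested.

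Replicate numbers 1 to 4 occur in both groups, and the labels do not say that they pair libraries. Same-numbered libraries deviated together by r of 0.05, 0.04, 0.05 and 0.07 across genes, each the best match of its library, as a hint from the data and not the design. With the replicate block 1 gene was called, Dlk1. The edgeR alternatives were not run, because the deposited unit could not be verified as counts. Depth limits these results, since 190 Dlk1+ and 307 Dlk1- cells reached 2000 UMIs and Dlk1+ replicate 3 gave 4 of them.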

Other observations

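Several genes of the wider pathway lay under the filter and have no test. Adam15, a membrane disintegrin, had 19 UMIs, at 23.02 ± 21.8 CPM in the Dlk1+ and 6.28 ± 4.74 CPM in the Dlk1- group (SD, n = 4 each). The highest value rests on 2 UMIs in Dlk1+ replicate 3, without which the Dlk1+ mean was 13.6 CPM. Rhbdf1, which encodes the carrier of ADAM17 called iRhom1, had 44 UMIs, at 26.7 ± 18.4 and 12.8 ± 6.70 CPM, and its highest value also rests on 2 UMIs in that library. Lrp1, the endocytic receptor that clears TIMP3, had 7 UMIs, of which 6 lay in Dlk1+ replicate 4, the library with the most myeloid markers, and Sdc2, a heparan sulfate proteoglycan, had 39 UMIs, at 6.99 ± 8.15 and 17.2 ± 6.13 CPM.

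The cell with most Timp3 RNA was a Dlk1- cell. It held 11 Timp3 UMIs among 3110, which is 0.354% of its UMIs, with 0 Dlk1 and 0 Meg3 UMIs and 10 UMIs of the HSC list. The Dlk1+ cell with most Dlk1 among the 16 richest in Timp3 held 6 Timp3, 19 Dlk1 and 14 Meg3 UMIs.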
